A study of Mus musculus with 12 samples.

Results

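The class I and class IIa histone deacetylases were examined in mouse cortex after chronic binge-like drinking. The members were the 8 rows of the count table with the gene symbols Hdac1, Hdac2, Hdac3 and Hdac8 (class I) and Hdac4, Hdac5, Hdac7 and Hdac9 (class IIa), out of 33024 gene symbols, of which 16059 were tested. All 8 members passed the expression filter. Cortex RNA came from 12 wildtype C57BL/6 mice of the abstinence arm of the study (Arm #2). The 7 control mice drank water from both bottles, and the 5 ethanol-administered mice chose between water and 20% (v/v) ethanol in the dark, from 30 days of age and over 35 days (2-bottle choice drinking in the dark). Ethanol was then withdrawn for 14 days, after which the mice went through maze, forced swimming and rotarod tests before the tissue was taken, so the values describe the brain after abstinence and testing. Intake was by free choice, so the dose was not fixed. All mice were perfused with saline under anaesthesia before the tissue was frozen.

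Histone deacetylases remove acetyl groups from lysines of histone tails, which packs chromatin more tightly and lowers transcription. Class I enzymes are largely nuclear and carry the main deacetylase activity. HDAC1 and HDAC2 are close relatives that work within the NuRD, Sin3 and CoREST co-repressor complexes, HDAC3 works within the NCoR complex, and HDAC8 acts outside these complexes. Class IIa enzymes have little deacetylase activity of their own. They bind MEF2 transcription factors, recruit HDAC3 with NCoR, and leave the nucleus bound to 14-3-3 proteins once calcium-dependent kinases phosphorylate them, which couples them to neuronal activity. In the brain, HDAC2 is known as a brake on synaptic genes and memory, and HDAC4 and HDAC5 are studied for their part in responses to drugs and experience.

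Total counts per mouse lay between 31768076 and 42183029, and control mouse 5 and ethanol-administered mouse 1 were sequenced more deeply than the others. Levels are given in CPM, the counts of a gene relative to the summed counts of the tested genes in its library, with these sums scaled by TMM factors. Markers of cortical neurons (8 genes, Slc17a7 among them) were present in all mice, with summed levels of 5373 to 6855 CPM in the control and 6011 to 7166 CPM in the ethanol-administered mice, and 3 of them rose and 1 fell. The tissue pieces differed in their marker content. All 11 striatal markers were lower in the ethanol-administered mice (summed level 284 to 337 against 1232 to 2741 CPM), and all 7 hippocampal markers were higher (137 to 182 against 29.1 to 36.4 CPM). Of the 10 oligodendrocyte markers 9 fell, with summed levels of 3109 to 5545 CPM in the ethanol-administered and 4644 to 6154 CPM in the control mice. Of 8 microglial markers 6 fell (292 to 315 against 344 to 384 CPM) and of 6 interneuron markers 3 fell (768 to 822 against 909 to 1237 CPM). Of 8 astrocyte markers 3 rose (3228 to 3741 against 2836 to 3363 CPM), and of 5 oligodendrocyte precursor markers 2 rose (133 to 166 against 118 to 149 CPM). Both of these summed ranges overlapped. Gjb6 (-0.16) and Aldh1l1 (-0.042) among the astrocyte markers had negative log2 fold changes without passing the test. So did C1ql1 (-0.27) and Neu4 (-0.24) among the precursor markers. No listed marker was at 0 in every mouse. These markers move with group membership, their part in the differences below was not tested, and in bulk tissue fewer cells of a type and less RNA per cell cannot be told apart.

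At the gene level, 3 of the 8 deacetylases rose and 1 fell in the ethanol-administered mice. Hdac7, Hdac9 and Hdac1 were higher by 1.39-fold, 1.22-fold and 1.22-fold, and Hdac2 was lower, at 0.872 of the control level. Hdac3, Hdac4, Hdac5 and Hdac8 did not pass the test. A gene was taken to rise or fall at an adjusted p under 0.05 in edgeR's quasi-likelihood test, fitted over all genes. Over the 16059 genes tested, 12.1% rose and 11.6% fell, against 37.5% and 12.5% of the 8 members. The median log2 fold change was 0.060 over class I, 0.22 over class IIa and 7.21e-05 over all genes tested. With 8 members this is a description of the family and was not tested as a set. The study also asked for a log2 fold change above 0.5 in size. Both criteria together were met by 4.2% of all genes in the higher and 4.09% in the lower direction. None of the 8 members met both in edgeR, DESeq2 or limma voom, while 5 of them had an unadjusted edgeR p under 0.05, 4 with higher and 1 with lower levels. Hdac7 lay closest to the line and crossed it when control mouse 6 or ethanol-administered mouse 1 was left out (log2 fold changes of 0.51 and 0.53).

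**Figure D1:**
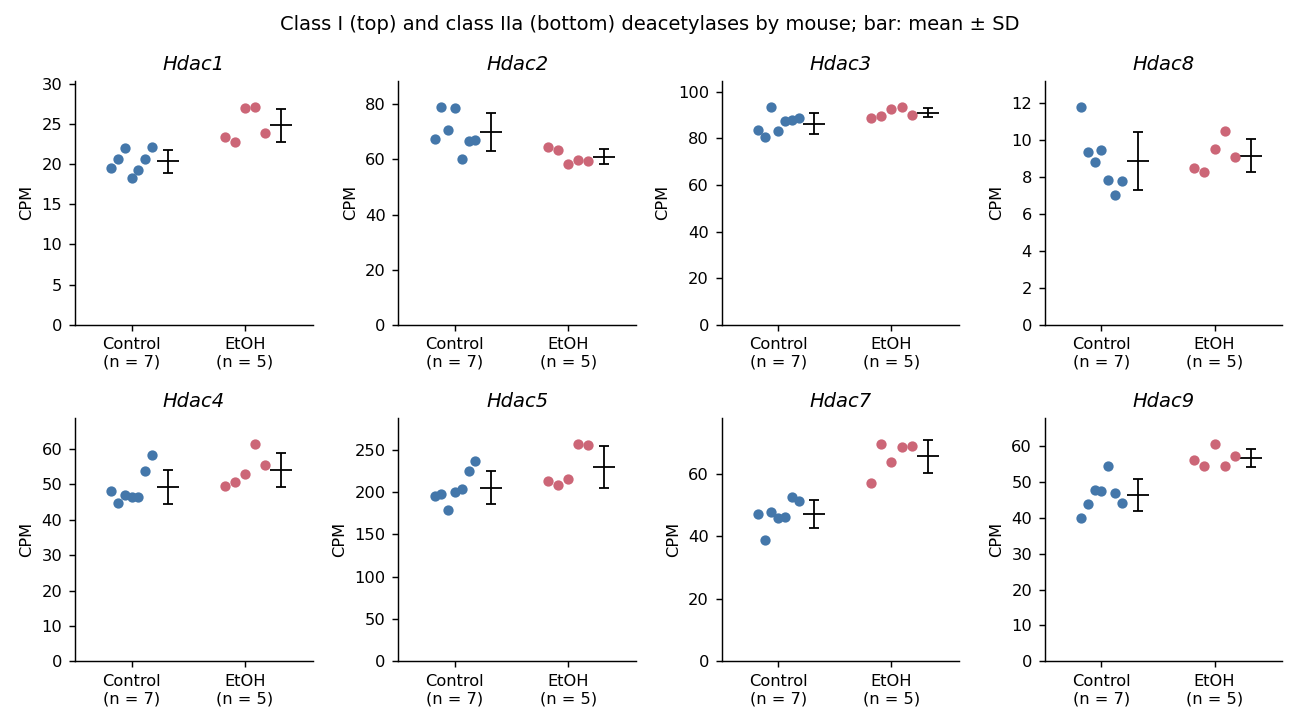
Level of each deacetylase in each mouse, in CPM, with class I genes in the upper and class IIa genes in the lower row. Points are mice (blue control, red ethanol-administered), and bars give the mean and SD. For Hdac7 and Hdac1 every ethanol-administered mouse lies above every control mouse.

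**Figure D2:**
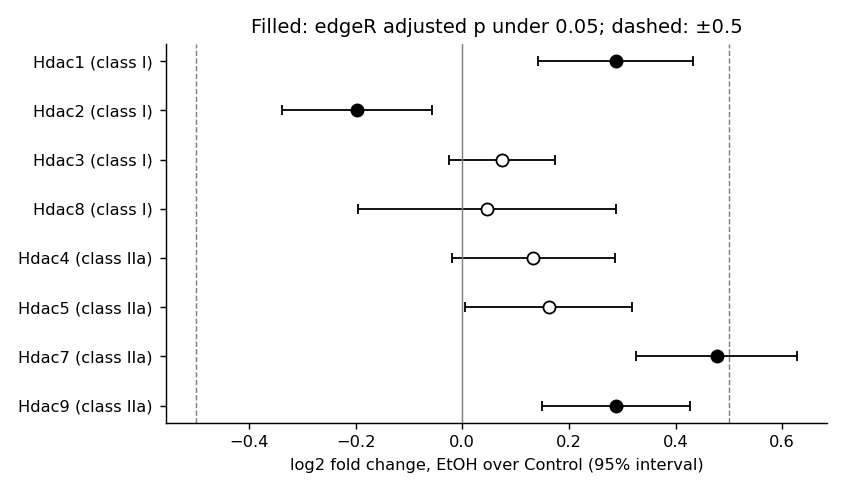
Log2 fold change of each deacetylase, ethanol-administered over control, with its 95% interval from edgeR. Filled points have an adjusted p under 0.05 and dashed lines mark 0.5 in size. Hdac7 stands at 0.48 and Hdac2 at -0.20.

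The start regions of 3 of the changed genes are printed to show the sequence at 1 annotated start of each. RefSeq starts (GRCm38.p6) were examined for 6 of the 8 members, at 10 start sites. Starts of Hdac1 and Hdac3 were not examined, which does not mean that RefSeq holds none for them. Each stretch runs 5′ to 3′ over 300 bases on the minus strand for Hdac7 and Hdac9 and on the plus strand for Hdac2, and ends 50 bases past the start site. Capitals mark the GC box, GGGCGG on either strand, and the TATA box, TATAAA on either strand.
Hdac7 (chr15:97831446-97831745): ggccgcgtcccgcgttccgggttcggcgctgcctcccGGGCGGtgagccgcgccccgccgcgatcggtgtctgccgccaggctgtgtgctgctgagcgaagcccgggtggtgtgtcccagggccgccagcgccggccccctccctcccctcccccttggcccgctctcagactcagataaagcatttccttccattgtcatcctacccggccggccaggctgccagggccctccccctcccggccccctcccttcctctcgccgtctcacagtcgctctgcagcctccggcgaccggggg
Hdac2 (chr10:36974294-36974593): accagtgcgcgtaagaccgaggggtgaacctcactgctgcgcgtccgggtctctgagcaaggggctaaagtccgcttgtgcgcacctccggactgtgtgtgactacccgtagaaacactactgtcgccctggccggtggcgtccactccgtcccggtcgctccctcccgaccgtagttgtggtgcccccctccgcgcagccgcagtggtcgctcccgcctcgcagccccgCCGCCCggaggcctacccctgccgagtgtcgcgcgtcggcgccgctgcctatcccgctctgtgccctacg
Hdac9 (chr12:34917046-34917345): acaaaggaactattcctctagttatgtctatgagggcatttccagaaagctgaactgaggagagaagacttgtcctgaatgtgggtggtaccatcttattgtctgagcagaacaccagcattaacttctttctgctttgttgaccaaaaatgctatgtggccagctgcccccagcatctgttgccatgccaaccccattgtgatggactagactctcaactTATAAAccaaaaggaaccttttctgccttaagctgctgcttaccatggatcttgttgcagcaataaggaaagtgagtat
The Hdac7 stretch held 31 CpG dinucleotides and a GC content of 73.7%, and the Hdac2 stretch 36 CpG and 69.7%. The Hdac9 stretch held 0 CpG, 44% GC and a single TATA box. Over all 32851 RefSeq start regions of this length the median was 7 CpG and 52.7% GC, and 10.6% had at least 31 CpG. These are single starts, and the other starts of the same genes differ from them. Hdac7 has 4 annotated starts, with 31, 35, 6 and 5 CpG, and Hdac9 has 2, with 0 and 3 CpG. The counts per gene do not separate reads by start, so no order of the genes by CpG follows. A GC box was found at 1 of the 4 Hdac7 starts, at the Hdac2, Hdac4 and Hdac5 starts and in 35.7% of all start regions. The TATA box was found at 1 of the 2 Hdac9 starts and at the Hdac8 start, and in 13.6% of all regions. Of the other motifs searched on both strands, CCAAT was found at the Hdac4, Hdac5 and Hdac8 starts (37.4% of all regions), CACGTG at the Hdac5 start (7.15%) and TGACGTCA at 0 of the 10 starts (1.79%).

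Among the class I enzymes, Hdac1 and Hdac2 moved in opposite directions. Hdac1, which lies on chromosome 4 of GRCm39 from 129409895 to 129436631, had 18.3 CPM in the lowest, 20.6 CPM in the median and 22.1 CPM in the highest control mouse. The ethanol-administered mice 1 to 5 had 23.3, 22.8, 27.0, 27.1 and 23.9 CPM. All 5 lay above every control mouse, a separation in this direction that 4.84% of all genes tested showed. The mean rose from 20.3 ± 1.43 CPM (SD, n = 7) to 24.8 ± 2.09 CPM (SD, n = 5). The log2 difference was 0.29 with a standard error of 0.069 (adjusted p by edgeR 0.00605). Leaving out any single mouse kept the log2 fold change between 0.25 and 0.31 with an adjusted p under 0.05 in all 12 fits.

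Hdac2, the partner of Hdac1 in the same complexes, lies on chromosome 10 from 36850435 to 36877890. Its control levels ran from 60.0 over a median of 67.6 to 79.0 CPM, and the ethanol-administered mice 1 to 5 had 64.5, 63.5, 58.2, 59.7 and 59.3 CPM. Here the groups overlapped. Ethanol-administered mice 3, 4 and 5 lay below every control mouse, and control mouse 5 (60.0 CPM) lay below ethanol-administered mice 1 and 2. The mean fell from 70.0 ± 6.87 CPM (SD, n = 7) to 61.04 ± 2.79 CPM (SD, n = 5). The log2 difference was -0.20 with a standard error of 0.067 (adjusted p by edgeR 0.0397). Over all genes, 4.96% had all ethanol-administered mice below all controls, and Hdac2 was not among them. The change in Hdac2 did not hold up to the loss of single mice. Its adjusted p rose above 0.05 in 7 of the 12 fits, namely without control mouse 1, 2, 3 or 4 and without ethanol-administered mouse 3, 4 or 5, with log2 fold changes between -0.24 and -0.17 over all 12.

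The balance between the partners was followed as the ratio of Hdac1 to Hdac2 counts within each library, which needs no scaling between libraries. The ratio was 0.232 in the lowest, 0.309 in the median and 0.330 in the highest control mouse, and 0.362, 0.358, 0.465, 0.454 and 0.403 in ethanol-administered mice 1 to 5. Every ethanol-administered mouse had a higher ratio than every control mouse. The mean ratio was 0.293 ± 0.0353 (SD, n = 7) in the control and 0.408 ± 0.0499 (SD, n = 5) after ethanol. The difference of 0.48 on the log2 scale gave p = 0.00126 in an exact two-sided permutation test, the smallest p that groups of 5 and 7 allow (adjusted over the 2 ratios tested, 0.00253). This ratio compares counts and not transcript numbers, since the genes differ in exon length. It carries the same libraries as the single-gene tests and is not independent of them.

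**Figure D3:**
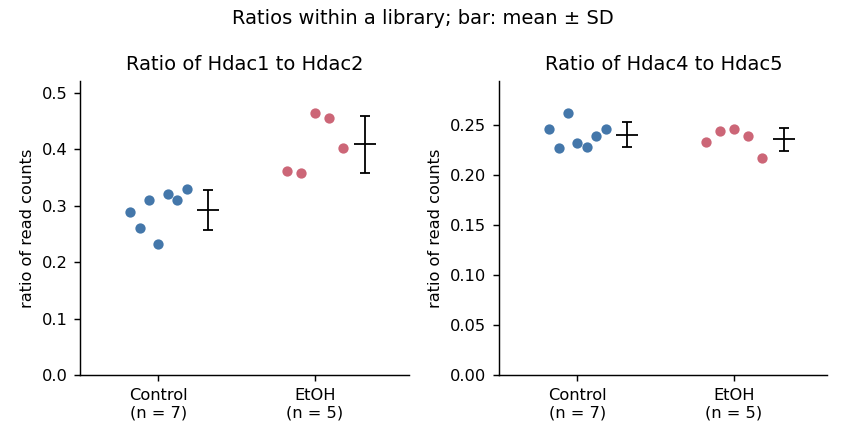
Ratio of Hdac1 to Hdac2 counts (left) and of Hdac4 to Hdac5 counts (right) in each mouse, with axes from 0. Points are mice, and bars give the mean and SD. The Hdac1 to Hdac2 ratios of the 5 ethanol-administered mice start at 0.358, above the highest control mouse at 0.330, while the Hdac4 to Hdac5 ratios overlap.

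The other class I enzymes did not pass the test. Hdac3, the catalytic subunit of the NCoR complex, had 86.4 ± 4.32 CPM (SD, n = 7) in the control and 91.0 ± 1.94 CPM (SD, n = 5) after ethanol, with ranges of 80.5 to 93.5 and 89.0 to 93.4 CPM. Its log2 fold change was 0.075 with a 95% interval of -0.026 to 0.17 (adjusted p by edgeR 0.272). This interval lies within 0.5 in either direction. Hdac8, an X-linked enzyme, had the fewest counts of the family, 220 to 376 per mouse. Its level was 8.86 ± 1.57 CPM (SD, n = 7) in the control and 9.15 ± 0.883 CPM (SD, n = 5) after ethanol, a log2 fold change of 0.046 with a wider interval of -0.20 to 0.29 (adjusted p by edgeR 0.805).

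Among the class IIa enzymes, Hdac7 showed the largest fold change of the family. Hdac7, best known from developing thymocytes and blood vessels, lies on chromosome 15 from 97687372 to 97742383. Control mice had 38.7 CPM at the lowest, 47.1 CPM at the median and 52.5 CPM at the highest, and ethanol-administered mice 1 to 5 had 57.0, 69.5, 63.7, 68.6 and 68.6 CPM. The lowest ethanol-administered mouse thus lay above the highest control mouse. The mean rose from 47.0 ± 4.49 CPM (SD, n = 7) to 65.5 ± 5.28 CPM (SD, n = 5). The log2 difference was 0.48 with a standard error of 0.072 and a 95% interval of 0.33 to 0.63 (adjusted p by edgeR 0.000124). By p-value it ranked 479 among all genes tested. The adjusted p stayed under 0.05 in all 12 fits that left out a mouse and in all 7 fits with another tool, scaling, filter or the block. Exons of Slc48a1, a heme transporter gene on the opposite strand, cover 24.1% of the exon length of Hdac7, and the strand setting of the counting is not stated. Slc48a1 fell over the same mice, from 179 ± 14.7 to 154 ± 10.3 CPM (log2 fold change -0.21, adjusted p by edgeR 0.0207).

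The 8 endothelial markers (Cldn5, Flt1, Pecam1, Cdh5, Tek, Kdr, Slco1a4 and Emcn) had a summed level of 204 to 227 CPM in the control and 205 to 227 CPM in the ethanol-administered mice. Of these markers 0 rose and 1 fell, against 12.1% and 11.6% of all genes tested. The marker that fell was Emcn, at -0.52 on the log2 scale, and the others lay between -0.15 (Cldn5) and 0.18 (Kdr). The part of the endothelial markers in the Hdac7 difference was not tested.

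Hdac9 is widely expressed in neurons and lies on chromosome 12 from 34097579 to 34967094. Control levels were 39.8 CPM at the lowest, 46.8 CPM at the median and 54.5 CPM at the highest, and ethanol-administered mice 1 to 5 had 56.1, 54.4, 60.6, 54.5 and 57.2 CPM. Control mouse 5, whose library was the deepest of the controls and whose Hdac2 level was the lowest of them, carried the highest control value, and the other 6 control mice lay below every ethanol-administered mouse. The mean rose from 46.3 ± 4.55 CPM (SD, n = 7) to 56.6 ± 2.53 CPM (SD, n = 5). The log2 difference was 0.29 with a standard error of 0.066 (adjusted p by edgeR 0.0045). All 12 fits that left out a mouse kept an adjusted p under 0.05, with log2 fold changes of 0.25 to 0.32.

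Hdac4 and Hdac5, the class IIa members most studied in neuronal plasticity, had higher means in the ethanol-administered mice but did not pass the test. Hdac4 had 44.6 to 58.2 CPM in the control and 49.5 to 61.4 CPM in the ethanol-administered mice, a log2 fold change of 0.13 with a 95% interval of -0.020 to 0.29 (adjusted p by edgeR 0.195). Hdac5 had 179 to 237 CPM in the control and 208 to 257 CPM in the ethanol-administered mice, a log2 fold change of 0.16 with an interval of 0.0048 to 0.32 (adjusted p by edgeR 0.125). Only ethanol-administered mouse 4 for Hdac4, and mice 4 and 5 for Hdac5, exceeded every control mouse. Control mice 6 and 7 were the highest controls for both genes. The ratio of Hdac4 to Hdac5 counts was 0.240 ± 0.0125 (SD, n = 7) in the control and 0.235 ± 0.0115 (SD, n = 5) after ethanol, a difference of -0.026 on the log2 scale (exact permutation p = 0.558, adjusted over the 2 ratios 0.558). Exons of G6pc3 on the opposite strand cover 30% of the exon length of Hdac5, and G6pc3 had a log2 difference of 0.11 (adjusted p by edgeR 0.375).

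To order the members by level, CPM were divided by the merged exon length of each gene in Gencode release M39. In control mice Hdac5 was the highest at 21.8 ± 2.08 CPM per kb (SD, n = 7), followed by Hdac3 at 19.6 ± 0.981, and their ranges overlapped. Hdac2 followed at 12.1 ± 1.19 CPM per kb, apart from its neighbours on either side. Hdac7 and Hdac1 came next at 4.73 ± 0.452 and 4.35 ± 0.305 CPM per kb and overlapped. Hdac9 and Hdac4 stood at 2.95 ± 0.290 and 2.87 ± 0.286 CPM per kb and also overlapped, and Hdac8 was lowest at 1.04 ± 0.184. The order of means was the same in the ethanol-administered mice. With the longest transcript as the length, Hdac4 and Hdac9 exchanged places in the control mice, the range of Hdac5 no longer met that of Hdac3, and the range of Hdac2 met that of Hdac3.

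**Figure D4:**
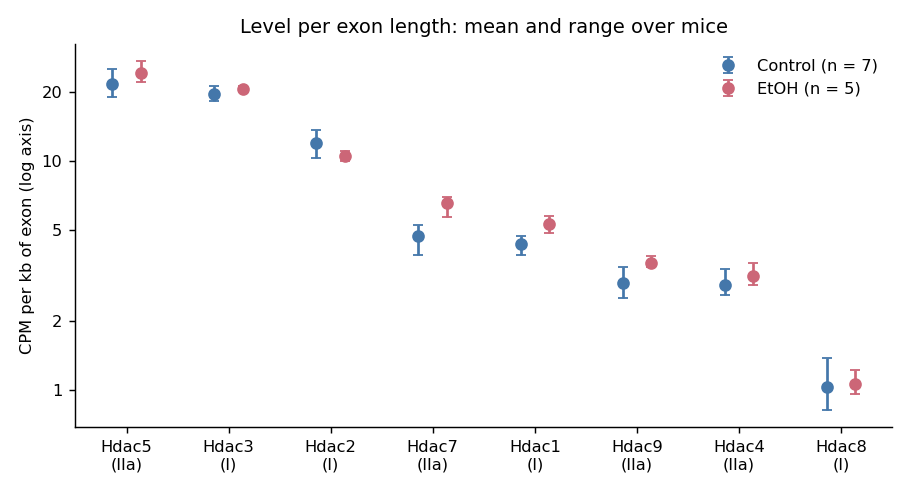
Level of each deacetylase per kilobase of merged exon, in CPM per kb on a log axis, for control (blue) and ethanol-administered mice (red). Points are means and bars run from the lowest to the highest mouse. The order of means is the same in both groups, from Hdac5 at 21.8 to Hdac8 at 1.04 CPM per kb in the control mice.

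Summed over its 4 members, class I stood at 37.1 ± 1.23 CPM per kb (SD, n = 7) in the control and 37.6 ± 0.666 (SD, n = 5) after ethanol. Class IIa stood at 32.3 ± 2.63 and 37.7 ± 3.13 CPM per kb. The class IIa share of the length-scaled sum was 43.0% to 49.4% in the control and 48.2% to 52.6% in the ethanol-administered mice, so the ranges overlapped. Within the family, the share of Hdac7 was 6.81% ± 0.506 (SD, n = 7) against 8.75% ± 0.599 (SD, n = 5), and that of Hdac2 was 17.4% ± 1.93 against 14.01% ± 1.16.

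The remaining deacetylases were looked at for comparison. Hdac6, a largely cytoplasmic enzyme that acts on tubulin, rose from 58.0 ± 3.57 CPM (SD, n = 7) to 65.9 ± 2.58 CPM (SD, n = 5), or by 0.18 on the log2 scale (adjusted p by edgeR 0.0198). Without ethanol-administered mouse 5 its adjusted p was 0.0539. Hdac10 and Hdac11 had log2 fold changes of 0.19 and 0.044 (adjusted p by edgeR 0.166 and 0.588). Of the 7 sirtuins, the NAD-dependent deacetylases, 0 changed in edgeR, DESeq2 or limma voom, and 1 with a higher and 1 with a lower level had an unadjusted edgeR p under 0.05. Leaving out single mice gave between 0 and 2 changed sirtuins. Their log2 fold changes lay between -0.12 and 0.20, and the median over all genes tested was 7.21e-05. Over all genes tested 12.1% rose and 11.6% fell, so with 7 genes the count of 0 is only a description.

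The complexes that carry HDAC1 and HDAC2 were described by their listed genes, to be read against the 12.1% of all genes that rose and the 11.6% that fell. Of 13 NuRD genes, 3 rose (23.1%) and 2 fell (15.4%), with a median log2 fold change of 0.0086, and between 3 and 6 changed as single mice were left out. The chromatin remodelling subunits Chd3 and Chd5 rose by 0.32 and 0.24 on the log2 scale, and Mta3, a scaffold subunit, rose from 69.3 ± 9.63 to 90.3 ± 3.57 CPM (log2 fold change 0.38, adjusted p by edgeR 0.00278). Mbd2, the subunit that reads methylated DNA, and Cdk2ap1 had log2 fold changes of -0.18 and -0.26 (adjusted p by edgeR 0.0347 and 0.044), and passed the test in 6 and 5 of the 12 fits that left out a mouse. Of 10 CoREST genes, 3 rose (30%) and 0 fell, and between 2 and 4 changed as single mice were left out. These were Rcor3 (0.36), a core scaffold, and Gse1 (0.46) and Zmym3 (0.23), which are associated proteins, with adjusted p-values by edgeR of 0.0037, 0.015 and 0.018. Zmym3 did not pass the test without ethanol-administered mouse 3 (adjusted p = 0.0566). Of 14 Sin3 genes, 0 changed in edgeR or limma voom and 1 rose in DESeq2, while 3 had an unadjusted edgeR p under 0.05 (2 with higher and 1 with lower levels). For the MiDAC complex, Mideas rose by 0.30 (adjusted p by edgeR 0.0245) and the other 2 genes did not pass the test, and Mideas passed it in 7 of the 12 fits that left out a mouse.

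In the complex that carries HDAC3, Ncor1, the co-repressor scaffold, rose from 294 ± 25.2 to 341 ± 12.1 CPM (log2 fold change 0.21, adjusted p by edgeR 0.0143). Tbl1x, an exchange factor of the same complex, fell from 93.8 ± 4.77 to 80.5 ± 3.23 CPM (log2 fold change -0.22, adjusted p by edgeR 0.00422), and its groups did not overlap. Tbl1xr1 and Gps2 did not pass the test. Both changed genes kept an adjusted p under 0.05 in all 12 fits that left out a mouse.

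Around the class IIa enzymes, the MEF2 factors did not pass the test. Of the 4 genes, 3 were tested, and 0 of them changed in edgeR, DESeq2 or limma voom or had an unadjusted edgeR p under 0.05. Mef2c, a factor of excitatory neurons, had a log2 difference of 0.12 (adjusted p by edgeR 0.195). Of 15 kinases known to act on class IIa enzymes or their relatives, 2 rose (13.3%) and 1 fell (6.67%), shares near or below the 12.1% and 11.6% of all genes. DESeq2 gave 3 that rose and 2 that fell, and between 2 and 6 changed as single mice were left out. Camk2d, the delta subunit of calcium and calmodulin-dependent kinase II, rose from 89.5 ± 8.62 to 131 ± 27.4 CPM (log2 fold change 0.56, adjusted p by edgeR 0.00144). Its groups overlapped, with 88.9 to 156 CPM after ethanol and 76.6 to 97.9 CPM in the control mice. Camk1d and Mark2 had log2 fold changes of 0.19 and -0.21 (adjusted p by edgeR 0.0495 and 0.0208). Camk1d kept an adjusted p under 0.05 in 3 and Mark2 in 11 of the 12 fits that left out a mouse. Of 7 genes for 14-3-3 proteins, 0 rose and 1 fell, namely Sfn, which had 2.07 ± 0.530 CPM in the control mice and 1.35 ± 0.228 CPM in the ethanol-administered mice. It passed the test in 4 of these 12 fits and not in limma voom. The other 6 genes had log2 fold changes between -0.15 and 0.046 and did not pass the test, but between 0 and 4 genes of this list changed as single mice were left out.

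The acetyltransferases, which write the mark that deacetylases remove, changed in 6 of 15 genes. Of these, 5 rose (33.3%, against 12.1% of all genes) and 1 fell (6.67%, against 11.6%), with a median log2 fold change of 0.019 over the list. Between 4 and 6 changed as single mice were left out. The co-activator Ncoa1 rose by 0.28 (adjusted p by edgeR 0.000691), with every ethanol-administered mouse above every control mouse. Kat6a, which acetylates histone H3, rose by 0.29 and Gtf3c4 by 0.23 (adjusted p by edgeR 0.0111 and 0.0147), all 3 in each of the 12 fits that left out a mouse. Kat2a had a log2 difference of -0.13 (adjusted p by edgeR 0.0469), with 86.4 to 95.03 CPM after ethanol and 97.0 to 104 CPM in the control mice, so its groups did not overlap, and it passed the test in 1 of these 12 fits. DESeq2 gave 5 acetyltransferases that rose and 2 that fell.

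**Figure D5:**
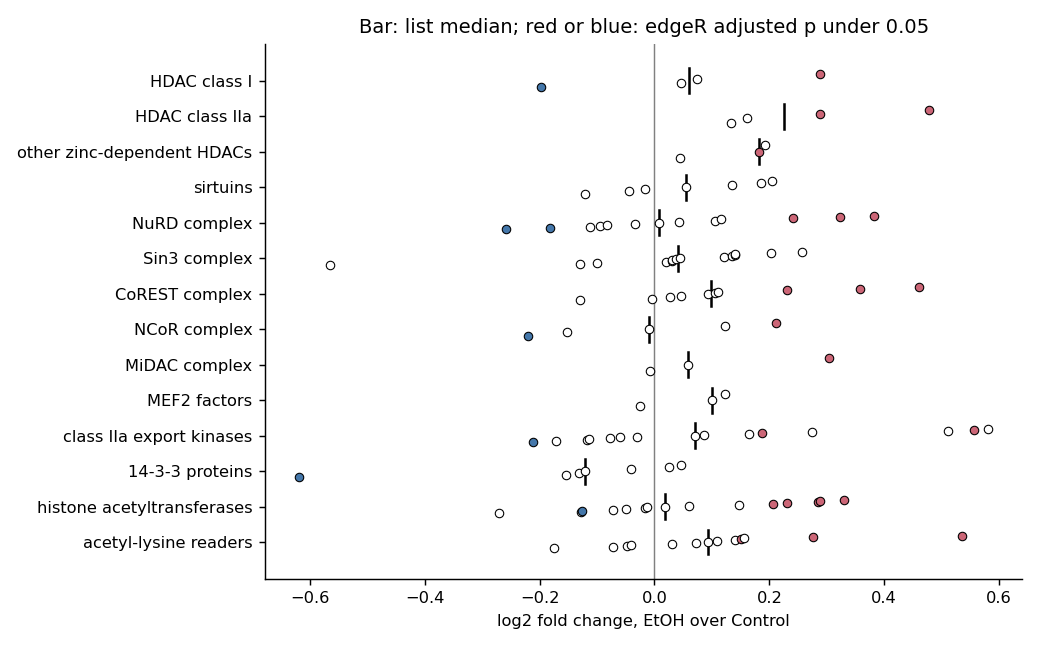
Log2 fold change, ethanol-administered over control, of every tested gene of the deacetylase classes and of the partner lists. Each point is a gene, red where it rose and blue where it fell (edgeR adjusted p under 0.05), and black bars are list medians. The class IIa median is 0.22 and that of class I 0.060, and the NuRD and NCoR lists hold both rising and falling genes.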

How the data were processed

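RNA sequencing of cortex from 12 mice was analysed (7 Control, 5 EtOH, as named in the sample titles). Per the study's methods, BGI extracted and sequenced the RNA, and the authors ran FastQC 0.11.9, STAR on GRCm39 with the Gencode annotation, and featureCounts. The authors deposited expected counts per gene symbol, unnormalized. For 61 symbols, none of them listed here, the values are not whole. Strand and multi-mapping settings are not given in the sources used here. All 12 columns were matched to mice by name, leaving 0 unmatched.

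Counts were rounded, filtered with filterByExpr, scaled with TMM and compared with edgeR 4.0.16 (R 4.3.3) and Benjamini-Hochberg adjustment over all genes. Standard errors are the log2 fold change divided by the square root of F. CPM use the summed counts of tested genes. Ratios were compared by exact permutation over 792 splits. At these depths 3 counts correspond to at most 0.0962 CPM. The titles number the samples within each group and each was taken as 1 mouse, so p-values measure the spread between these samples. No 2 libraries of a group were alike within sampling noise (chi-square of at least 7.76 for each degree of freedom).

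Alternatives were DESeq2 1.42.0, limma 3.58.1 voom, other scaling factors and filters, a replicate block and each mouse left out. The members and lists were chosen with earlier results of these data known. Named genes are all members, list genes past both thresholds, the 3 changed genes of smallest p per list and direction, and the 3 genes most like each member. Slc48a1 and G6pc3 were added after overlaps were seen, and Hdac10, Hdac11, Mef2c, Tbl1xr1, Gps2 and the markers named after their values were seen. Positions, exon lengths and exon overlaps are from Gencode M39 (GRCm39), which is not the Gencode release that the authors name for their counts.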

Additional observations from a re-analysis of the deposited data

How the results depend on the processing

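Hdac1, Hdac7 and Hdac9 kept an adjusted p under 0.05 under each of the 7 alternatives of tool, scaling, filter and block and in each of the 12 fits that left out a mouse, and Hdac2 under those 7 alternatives but in only 5 of the 12 fits (log2 fold change -0.24 to -0.17). The count of members that fell was accordingly 0 to 1, and the count past a log2 fold change of 0.5 was 0 to 1, as mice were left out. Hdac8, which did not pass the test, ranged from -0.039 to 0.059 under the 7 alternatives and from -0.0077 to 0.13 as mice were left out, and Hdac4 from 0.082 (without ethanol-administered mouse 4) to 0.18. With the replicate number as a block, Hdac4 (0.21) and Hdac5 (0.23) also passed, 5 members rose, and 1, Hdac7, passed both criteria, while 690 and 634 of all genes were called higher and lower. Under the same block Hdac6, Mbd2, Cdk2ap1, Camk1d, Mark2, Sfn, Kat2a and Brd3 no longer passed (adjusted p by edgeR 0.0605 to 0.187). Deviations from the group means correlated by -0.11 to 0.018 over the 5 shared numbers. These values show no sign that the numbers pair the mice, but they cannot exclude it. Over those numbers the Hdac1 to Hdac2 difference was 0.53, at an exact p of 0.0625, the smallest that 5 pairs allow. The Hdac4 to Hdac5 difference ran from -0.042 to 0.0032 and reversed without ethanol-administered mouse 5. With the longest transcript as length, the class IIa share was 50.6% in the control and 54.2% in the ethanol-administered mice, against 46.5% and 50.0%, since lengths set that share. At a log2 fold change above 1, 242 genes were called higher and 282 lower, against 674 and 657. Otherwise the cause of these changes was not tested. Over the 23 changed list genes that the naming rule chose, 69 refits lost an adjusted p under 0.05, 368 kept it and 0 reversed. Hdac8, at 220 to 376 counts, is the member with the least depth.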

Other observations

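Proteins that bind acetylated lysines, the readers of the mark, were not part of the comparisons above. Of 13 reader genes tested, 3 rose (23.1%, against 12.1% of all genes) and 0 fell (against 11.6%), with 5 at a higher and 1 at a lower level at an unadjusted edgeR p under 0.05. Between 2 and 4 changed as single mice were left out. DESeq2 and limma voom also gave 3 that rose and 0 that fell. Brd9, a subunit of a BAF-type chromatin remodelling complex, rose from 81.7 ± 5.48 CPM (SD, n = 7) to 118 ± 7.46 CPM (SD, n = 5), or by 0.54 on the log2 scale (adjusted p by edgeR 3.69e-06), with every ethanol-administered mouse above every control mouse. Yeats2 rose by 0.28 and Brd3 by 0.15 on the log2 scale (edgeR adjusted p = 0.013 and 0.0314), and Brd3 passed the test in 6 of the 12 fits that left out a mouse.

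After group means were removed, the genes whose log2 CPM followed each changed deacetylase most closely over the 12 mice were listed from 14172 genes, as a description with no test. For Hdac7 these were Inppl1, Pgap6 and Cdan1 (Pearson r of 0.93 for each), and for Hdac1 Gys1, Ndp and Cyb5rl (0.92, 0.91 and 0.90). For Hdac9 they were Myl9, Cbx2 and Hspg2 (0.89, 0.88 and 0.86), and for Hdac2 Gstm5, Txnl4b and 9130401M01Rik (0.94, 0.92 and 0.91). For the members that did not pass the test, they were Mafk, B4galnt4 and Slc38a6 for Hdac3 (0.91, 0.91 and 0.89), Hps5, Acap3 and Tpcn1 for Hdac4 (0.92 for each), Zfp598, Arid3b and Crat for Hdac5 (0.94, 0.93 and 0.90), and Mlx, Rpe and Ehd3 for Hdac8 (0.89, 0.87 and 0.86). These values are the highest of all genes compared, and the 12 points share their libraries' depth and scaling.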
